A study of Saccharomyces cerevisiae with 72 samples.

Results

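SWI/SNF is a yeast chromatin remodelling complex, and the 10 genes described here encode its subunits: SNF2 (YOR290C), SWI1 (YPL016W), SWI3 (YJL176C), SNF5 (YBR289W), SNF6 (YHL025W), SNF11 (YDR073W), SNF12 (YNR023W), SWP82 (YFL049W), ARP7 (YPR034W) and ARP9 (YMR033W). They were identified by their systematic gene names, as subunits of 1 complex and not by a threshold on a measured value, and they are 10 of the 5498 features in the RNA-seq table. SNF2 also has a 5′-extended transcript, and the region unique to that extension was quantified as 1 further feature of the table. All cells were diploid budding yeast of the SK1 background, in which copper-inducible promoters drive IME1 and IME4, the inducers of meiotic entry. The cells were held in sporulation medium (SPO) and given 50 µM CuSO4 after 2 h, so that 2 h is the premeiotic stage and 4 h is meiotic prophase.

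RNA-seq covered a time course of 0, 2, 3 and 4 h with 3 libraries at each time in both of 2 strains. The T99N strain (UB22629) carries UME6(T99N)-3V5, an allele of the DNA-binding protein Ume6 whose mutation inhibits binding to Ime1. The wild-type UME6 strain (UB20649) carries Ume6-3V5. Both strains share the pCUP1-3HA-IME1 construct at irt1, but they differ in the IME4 construct as well (pCUP-IME4 in T99N, pCUP1-3HA-IME4 in wild type). Effects of T99N and of the IME4 construct cannot be told apart. The strain UB14584 (pCUP-IME1, pCUP-IME4, the BY4741 allele of amn1, no UME6 tag), gave RNA-seq at 4 h and 2 h (2 libraries each). It also gave transcript leader sequencing (TL-seq), which reads the 5′ ends of capped mRNAs, at 4 h and 2 h (4 libraries each, replicates 1, 3 and 5 in one table and 4 and 5 in a second), and nucleosome maps in which the libraries of each time were pooled. Ume6 binding was mapped in UB3301, a strain with UME6-3V5, grown to saturation in the presporulation medium BYTA, with 3 replicates. The labels give strain names only, and the genotypes come from the methods of the study.

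Remodelers of the SWI/SNF family use ATP hydrolysis to slide, unwrap or evict nucleosomes, and the yeast complex is best known for opening promoters of inducible genes. Snf2 is its catalytic ATPase, Swi1 and Snf5 contact transcriptional activators, Swi3 and Snf12 belong to the structural core, and Arp7 and Arp9 are actin-related proteins that the complex shares with a second remodeler, RSC. A long undecoded transcript isoform (LUTI) starts at a promoter upstream of the usual one and carries upstream reading frames that keep its coding sequence from being translated. The transcript from the usual, coding-sequence-proximal start is called the PROX isoform. Ume6 binds the URS1 element, whose core is GCCGCC, represses early meiotic genes in mitotic cells, and becomes part of an activator with Ime1 at meiotic entry.

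Among the 10 members, 2 (SNF2 and SWI1) held the URS1 core in the 800 bp upstream of their start codons in the S288C R64 reference sequence, on either strand (GCCGCC or its reverse complement GGCGGC). The same core occurred in 899 of 5997 upstream windows of that length (15.0%). The longer form TAGCCGCC was also present in 2 of the 10 members, against 202 of 5997 windows (3.37%). The matches are shown because SNF2 and SWI1 are also the members with the most enriched Ume6 summits upstream of their start codons, with the core in capitals and 12 bases on each side, in the direction of the gene.
SNF2, chrXV:860526-860555, minus strand, core starting 285 bp before the start codon: ttaggaaaaataGCCGCCggtaaaaatagt
SWI1, chrXVI:520294-520323, plus strand, core starting 708 bp before the start codon: gcatgttaaataGCCGCCgaaacagcagat
SWI1, chrXVI:520864-520893, plus strand, core on the other strand 138 bp before the start codon: taatcactgactGGCGGCtattttcctatt
These coordinates belong to S288C R64, whereas all coordinates given with measured values belong to the deposited SK1 annotation. A match is a description of the letters in the window and not a measured site.

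Ume6 was highly enriched upstream of SNF2. Peaks were called by the authors in each replicate over its own input, and the summit with the highest enrichment at SNF2 lay 247, 280 and 278 bp before the start codon in replicates 1, 2 and 3. Its fold enrichment was 90.7, 188 and 242. By this measure it ranked 41 of 2039 peaks in replicate 1, 4 of 2082 in replicate 2 and 3 of 2028 in replicate 3. The summit therefore lay between the distal and the PROX start sites of SNF2. A weaker summit, 650 and 633 bp before the start codon, was present in replicates 2 and 3 at 13.2-fold and 11.3-fold.

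SWI1, the other member with motif matches, had a pair of Ume6 summits in every replicate. The upstream summit lay 704, 707 and 710 bp before the start codon with 91.8-fold, 52.8-fold and 63.1-fold enrichment in replicates 1, 2 and 3. The downstream summit lay 181, 179 and 177 bp before the start codon with 27.1-fold, 51.3-fold and 47.4-fold enrichment. With a gene called bound when a summit over 4-fold lay within 300 bp of its start site in at least 2 of 3 replicates, 2 of the 10 members were bound, SNF2 and SWI1. Of all genes with a start site, 14.2% were bound by the same rule. SNF11, which encodes a small subunit that binds Snf2, had a summit of 17.8-fold, 14.8-fold and 12.4-fold 652, 638 and 663 bp upstream in replicates 1, 2 and 3, outside that window. ARP7 had 5.33-fold, 3.14-fold and 4.29-fold at 606, 586 and 586 bp upstream. SNF6, which encodes a fungal accessory subunit, had no summit over 4-fold upstream of its start codon, and 3.03-fold, 2.70-fold and 2.51-fold summits 191, 179 and 167 bp before it in replicates 1, 2 and 3. Downstream of its start codon it had summits of 24.4-fold, 15.6-fold and 16.6-fold at 671, 678 and 678 bp, and of 14.8-fold, 19.9-fold and 24.6-fold at 955, 991 and 991 bp. SWI3 had a single summit of 2.15-fold in replicate 1, and SNF5, SNF12, SWP82 and ARP9 had none within 800 bp upstream.

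**Figure D1:**
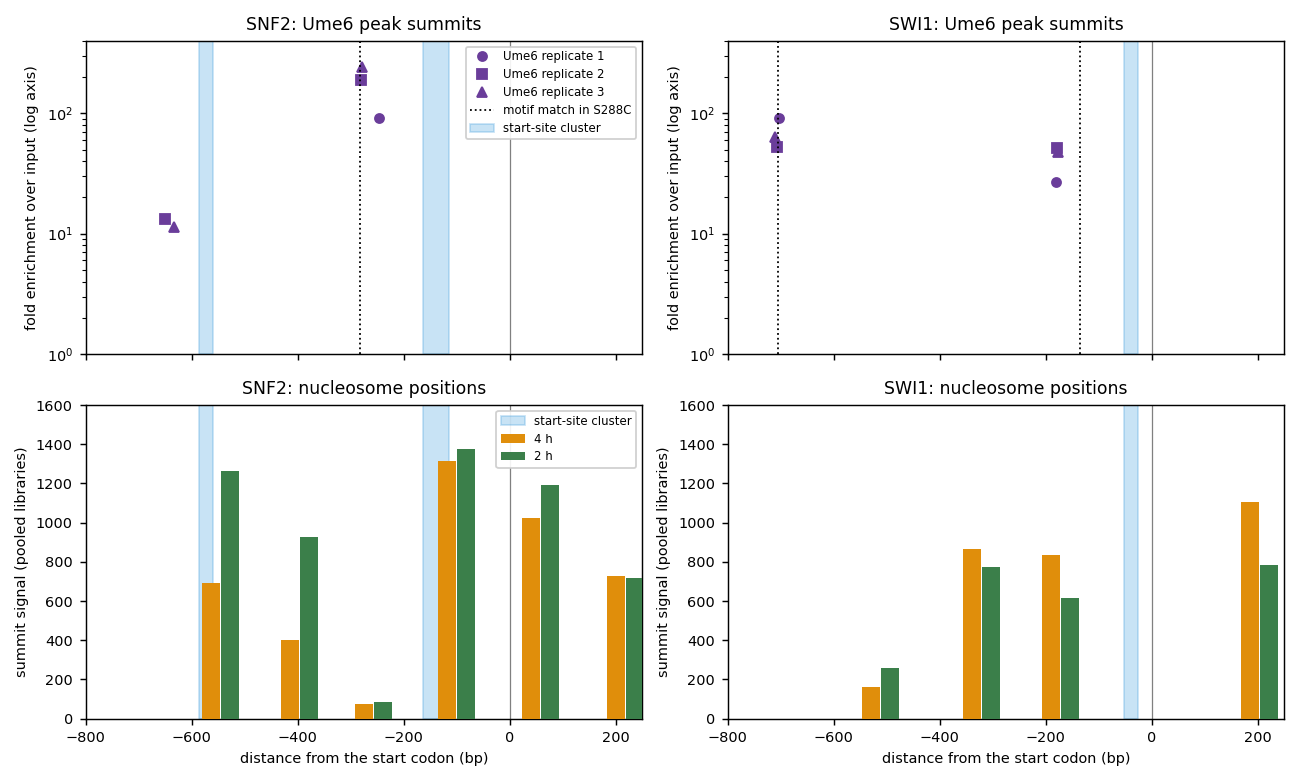
Upper panels show the fold enrichment over input (log axis) of each Ume6 peak summit by its distance from the start codon of SNF2 (left) and SWI1 (right), with replicates as symbols, start-site clusters as blue bands and motif matches in the S288C sequence as dotted lines. Lower panels show nucleosome summit signal in pooled libraries, with the 4 h bar drawn to the left and the 2 h bar to the right of each position, and the SNF2 positions at −546 and −396 bp are lower at 4 h (691 and 401) than at 2 h (1265 and 927).

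The stage named by the labels was checked with 8 early meiotic genes (IME2, SPO13, HOP1, DMC1, REC8, SPO11, ZIP1 and RED1). Expression is given as CPM, read counts scaled to a common library total with trimmed-mean (TMM) factors over the 24 libraries. The summed CPM of the 8 genes was 1321 to 1499 at 4 h and 789.8 to 952 at 2 h in T99N, against 10692 to 11308 at 4 h and 384 to 541 at 2 h in wild-type UME6. All 8 passed the test for a rise from 2 h to 4 h in wild-type UME6 and 3 of 8 did in T99N. UME6 mRNA averaged 684 ± 171 CPM in T99N and 211 ± 20.8 CPM in wild-type UME6 at 2 h (SD, n = 3 each), which says nothing of the point mutation itself. The summed CPM of 4 middle meiotic genes (NDT80, SPS1, SMK1 and SPS4) was 66.0 to 77.7 at 4 h and 72.2 to 99.1 at 2 h in T99N. In wild-type UME6 it was 68.3 to 391 at 4 h and 77.9 to 284 at 2 h, so those libraries were widely spread at both times. By IME1, T99N replicate 1 at 2 h stood apart before copper was added. It had 1870 CPM, while the lowest library of that group had 74.5 CPM, and results that change without this T99N library are given with and without it. Assigned reads numbered 5013206 to 10368419 per library in T99N and 9087102 to 20865934 in wild-type UME6, and 3124472 to 4845107 in UB14584. Nothing in the labels says that replicates came from separate cultures, so p-values measure the spread between these samples. In bulk RNA, fewer cells expressing a gene and less RNA per cell cannot be told apart.

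From 2 h to 4 h, 7 of the 10 subunit mRNAs rose in the wild-type UME6 strain, by 1.91-fold to 3.29-fold, whereas in the T99N strain 1 rose and 2 fell. SWI1 rose most in wild-type UME6 and SNF2 rose 2.14-fold. SNF6, SNF11 and SWP82 passed the test in neither direction in wild-type UME6, though SNF6 and SNF11 passed with other processing, as described at the end. The log2 fold change was lower in T99N for 8 of the 10 members by the strain-by-time interaction. The tests were edgeR quasi-likelihood tests with Benjamini-Hochberg adjustment over 5486 features and a threshold of 0.05. By the same tests 9.77% of all features were higher and 11.1% lower at 4 h in T99N, and 32.3% were higher and 30.8% lower in wild-type UME6. For the interaction, 18.2% of all features had a higher log2 fold change in T99N and 17.5% a lower one. The median log2 fold change of the members was 0.17 in T99N and 1.04 in wild-type UME6, against −0.0047 and 0.017 over all features.

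These values depend on how libraries are scaled. With library totals in place of TMM, the median log2 fold change of all features moved to 0.41 at 4 h against 2 h and to 0.66 at 3 h against 2 h in wild-type UME6, to −0.27 for T99N against wild type at 4 h and to −0.43 for the interaction. Higher calls then made up 34.9% of calls in T99N and 73.8% in wild-type UME6, in place of 46.9% and 51.2% with TMM. For T99N against wild type they made up 67.5% at 2 h and 24.8% at 4 h, in place of 50.8% and 48.7%, and for the interaction 20.7% in place of 51.0%. The members' changes are therefore given relative to the typical feature.

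**Figure D2:**
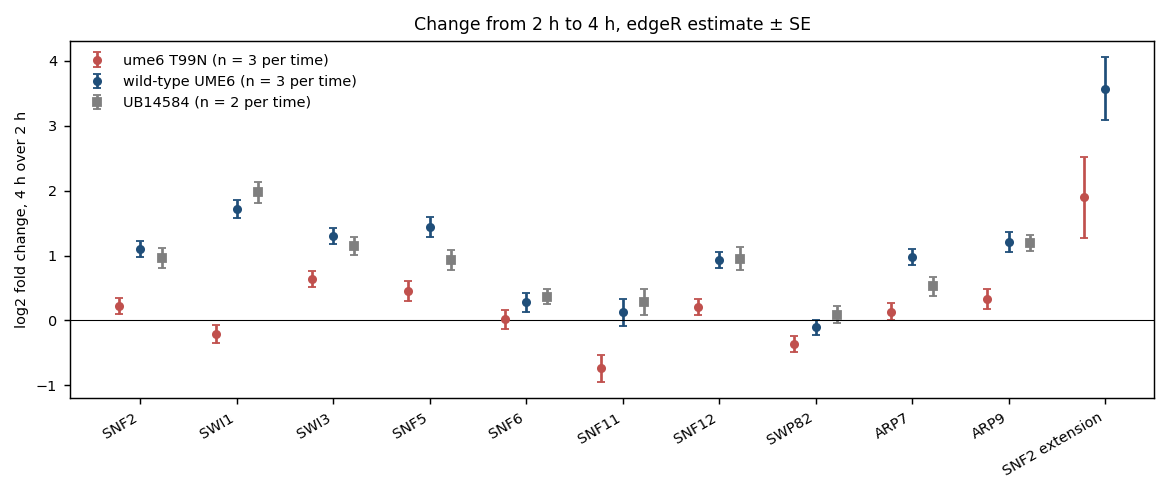
Log2 fold change of each member at 4 h over 2 h in RNA-seq by edgeR, with bars of 1 standard error, for T99N and wild-type UME6 (3 libraries per time) and UB14584 (2 per time), with the SNF2 extension at the right. In wild-type UME6, 7 members lie at 0.94 to 1.72, and in T99N the members run from −0.74 (SNF11) to 0.63 (SWI3).

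SNF2, the ATPase, had similar coding-sequence levels in the T99N libraries of both times, 275, 313 and 307 CPM at 4 h against 260.0, 255 and 263 CPM at 2 h. In wild-type UME6 it had 388, 358 and 456 CPM at 4 h against 204, 173 and 178 CPM at 2 h. The 4 h libraries lay above the 2 h libraries in both strains, but the gap in T99N was small. The log2 fold change was 0.22 ± 0.12 (SE, edgeR adjusted p = 0.202) in T99N and 1.10 ± 0.12 (edgeR adjusted p = 3.77e-06) in wild-type UME6. The interaction was −0.88 ± 0.17 (edgeR adjusted p = 0.00156). SNF2 had also been higher in T99N before induction, by 0.49 on the log2 scale at 2 h (edgeR adjusted p = 0.00765), and was lower in T99N by −0.38 at 4 h (edgeR adjusted p = 0.0177). The 4 h call was lost without T99N replicate 1 (edgeR adjusted p = 0.0956) or without wild-type replicate 3 (edgeR adjusted p = 0.0742).

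SWI1 showed the largest difference between the strains among the members. In T99N it had 155, 163 and 139 CPM at 4 h against 179, 203 and 153 CPM at 2 h. In wild-type UME6 it had 263, 246 and 300.1 CPM at 4 h against 92.3, 76.8 and 74.2 CPM at 2 h. The groups overlapped in T99N and stood far apart in wild-type UME6, where every 4 h library was above every 2 h library. The log2 fold change was −0.21 ± 0.14 (edgeR adjusted p = 0.289) in T99N and 1.72 ± 0.14 (edgeR adjusted p = 2.09e-07) in wild-type UME6, and the interaction was −1.92 ± 0.19 (edgeR adjusted p = 7.77e-06). Before induction SWI1 was higher in T99N by 1.14 ± 0.14 on the log2 scale (edgeR adjusted p = 0.000303 at 2 h), and at 4 h it stood at 0.58 of the wild-type level (edgeR adjusted p = 0.000382). Both bound members were thus higher in T99N at 2 h and lower in T99N at 4 h. SWI3 and SNF12, which were not bound by the same rule, were called in the same directions at those times.

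SWI3 and SNF12 encode subunits of the structural core. SWI3 was the member called higher in T99N, with 209, 228 and 214 CPM at 4 h against 165, 123 and 137 CPM at 2 h. In wild-type UME6 it had 296, 253 and 292 CPM at 4 h against 112, 114 and 112 CPM at 2 h. The log2 fold change of SWI3 was 0.63 ± 0.12 (edgeR adjusted p = 0.00451) in T99N and 1.29 ± 0.12 (edgeR adjusted p = 1.02e-06) in wild-type UME6, with an interaction of −0.66 ± 0.17 (edgeR adjusted p = 0.0097). SWI3 thus rose in both strains, less in T99N, and its libraries did not overlap between the times in either strain. The T99N call was lost when replicate 2 (edgeR adjusted p = 0.154) or 3 (0.102) was left out throughout. The interaction was lost without replicate 1 (edgeR adjusted p = 0.0917) or 3 (0.101). Both held without any single library (edgeR adjusted p up to 0.0273 and 0.0337). SNF12 had 47.5, 44.9 and 52.2 CPM at 4 h against 44.8, 43.5 and 39.3 CPM at 2 h in T99N. It had 58.5, 63.1 and 69.9 CPM at 4 h against 36.8, 32.5 and 29.6 CPM at 2 h in wild-type UME6. SNF12 rose in wild-type UME6 alone (log2 fold change 0.94 ± 0.12, edgeR adjusted p = 2.11e-05), with an interaction of −0.73 ± 0.18 (edgeR adjusted p = 0.00642).

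SNF5, which encodes the subunit that contacts activators and the nucleosome surface, had 95.2, 95.5 and 99.2 CPM at 4 h against 87.3, 62.2 and 65.4 CPM at 2 h in T99N. In wild-type UME6 it had 148, 144 and 179 CPM at 4 h against 51.4, 67.3 and 53.3 CPM at 2 h. The T99N difference (log2 fold change 0.45 ± 0.15, edgeR adjusted p = 0.0544) did not pass the threshold with all libraries, and passed it without T99N replicate 1 at 2 h, the library with high IME1 (0.63, edgeR adjusted p = 0.00483). SNF5 rose in wild-type UME6 by 1.43 ± 0.15 on the log2 scale (edgeR adjusted p = 2.82e-06), with an interaction of −0.99 ± 0.22 (edgeR adjusted p = 0.00327). SNF6 did not pass any of these tests, with log2 fold changes of 0.01 ± 0.15 (edgeR adjusted p = 0.958) in T99N and 0.28 ± 0.15 (edgeR adjusted p = 0.122) in wild-type UME6. Its libraries ran from 71.7 to 97.2 CPM in T99N and from 60.3 to 98.3 CPM in wild-type UME6 over both times.

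The actin-related subunits ARP7 and ARP9 rose in wild-type UME6 alone. ARP7 had 38.2, 34.7 and 32.9 CPM at 4 h against 36.6, 33.8 and 27.5 CPM at 2 h in T99N, and ARP9 had 43.8, 47.3 and 50.2 CPM against 42.8, 37.8 and 33.5 CPM. In wild-type UME6, ARP7 had 73.9, 76.9 and 75.5 CPM at 4 h against 38.3, 40.1 and 35.2 CPM at 2 h. ARP9 had 84.1, 83.9 and 78.3 CPM at 4 h against 40.9, 26.7 and 38.1 CPM at 2 h in wild-type UME6. Neither gene had overlapping times in wild-type UME6. ARP7 changed by 0.13 ± 0.13 (edgeR adjusted p = 0.503) in T99N and 0.98 ± 0.13 (edgeR adjusted p = 1.44e-05) in wild-type UME6 on the log2 scale. ARP9 changed by 0.33 ± 0.16 (edgeR adjusted p = 0.153) in T99N and 1.21 ± 0.15 (edgeR adjusted p = 1.4e-05) in wild-type UME6. The interactions were −0.85 ± 0.18 for ARP7 (edgeR adjusted p = 0.00277) and −0.88 ± 0.22 for ARP9 (edgeR adjusted p = 0.00741). At 4 h, ARP7 stood at 0.48 of the wild-type level in T99N (edgeR adjusted p = 2.18e-05), the largest strain difference among the members at that time.

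SNF11 and SWP82, which encode peripheral subunits, were the members called lower in T99N. SNF11 had 52.9, 52.3 and 58.5 CPM at 4 h against 55.9, 125 and 99.1 CPM at 2 h in T99N, so that the 2 h libraries were widely spread. In wild-type UME6 it had 60.4, 71.2 and 69.6 CPM at 4 h against 59.2, 64.1 and 59.1 CPM at 2 h. The log2 fold change of SNF11 was −0.74 ± 0.21 (edgeR adjusted p = 0.0235) in T99N and 0.12 ± 0.20 (edgeR adjusted p = 0.618) in wild-type UME6. The T99N call was lost without any 1 of replicates 2 and 3 at 2 h or of replicates 1, 2 and 3 at 4 h, with edgeR adjusted p up to 0.107 (without replicate 2 at 2 h). Its interaction of −0.86 ± 0.29 (edgeR adjusted p = 0.0326) was lost when any library but wild-type replicate 1 at 4 h, T99N replicate 1 at 2 h or T99N replicate 3 at 4 h was left out, with edgeR adjusted p up to 0.0828. SWP82 had 84.1, 84.9 and 95.6 CPM at 4 h against 106, 119 and 121 CPM at 2 h in T99N (log2 fold change −0.36 ± 0.12, edgeR adjusted p = 0.0469). That call was lost without any 1 T99N library except replicate 1 at 2 h, with edgeR adjusted p up to 0.149. In wild-type UME6, SWP82 changed by −0.11 ± 0.12 on the log2 scale (edgeR adjusted p = 0.449), and its interaction was −0.26 ± 0.17 (edgeR adjusted p = 0.256).

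The strains differed before induction as well as after it. At 2 h, 5 of the 10 members were higher in T99N and none was lower, where 19.1% of all features were higher and 18.5% lower. They were SNF2, SWI1, SWI3 (0.33, edgeR adjusted p = 0.0491), SNF11 (0.61, edgeR adjusted p = 0.0319) and SNF12 (0.37, edgeR adjusted p = 0.0361). Without T99N replicate 1, the library with high IME1, 3 of the 10 were higher, and the calls of SWI3 (edgeR adjusted p = 0.166) and SNF12 (edgeR adjusted p = 0.0783) were lost. The call of SWI3 was lost without any 1 library except T99N replicate 2, that of SNF11 without any except T99N replicate 1 (edgeR adjusted p up to 0.168), and that of SNF12 without any except wild-type replicate 1 and T99N replicate 3 (edgeR adjusted p up to 0.136). At 4 h, 7 of the 10 members were lower in T99N and none was higher, where 25.2% of all features were lower and 23.9% higher. These were the 7 that had risen in wild-type UME6. The call of SWI3 at 4 h (−0.33, edgeR adjusted p = 0.0384) was lost without any 1 library except wild-type replicate 2 (edgeR adjusted p up to 0.139). That of SNF12 (−0.36, edgeR adjusted p = 0.0277) was lost without T99N replicate 1 or 2 or wild-type replicate 2 or 3 (edgeR adjusted p up to 0.103). The early meiotic list moved with them: 7 of its 8 genes were higher in T99N at 2 h, and its part in these differences was not tested.

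The time course placed the wild-type rise between 2 h and 3 h. SNF2 averaged 127, 185, 431 and 401 CPM at 0, 2, 3 and 4 h in wild-type UME6, and 204, 259, 263 and 298 CPM at those times in T99N. SWI1 averaged 57.7, 81.1, 318 and 270 CPM in wild-type UME6 and 68.2, 179, 161 and 152 CPM in T99N. The rise of SWI1 in T99N thus came before copper, between 0 h and 2 h. In fits of all 24 libraries with 5488 features, 7 members rose from 2 h to 3 h in wild-type UME6 (35.0% of all features higher, 31.2% lower) and SNF11 fell (−0.49 ± 0.19, edgeR adjusted p = 0.03), though with library totals only its change turned to 0.14. From 3 h to 4 h the one call was SNF11, which rose (0.62 ± 0.19, edgeR adjusted p = 0.0125, 20.6% of all features higher, 18.1% lower). This rise was lost when replicate 2 (edgeR adjusted p = 0.109) or replicate 3 (0.132) was left out throughout. Without wild-type replicate 3 at 3 h, SNF5 passed from 3 h to 4 h (0.55, edgeR adjusted p = 0.0141). In T99N no member rose from 2 h to 3 h or from 3 h to 4 h by edgeR (1.17% and 4.99% of all features higher), SNF11 fell from 2 h to 3 h (−0.73 ± 0.19, edgeR adjusted p = 0.0399, 3.35% lower), and none fell from 3 h to 4 h (9.24% lower). Without T99N replicate 1 at 2 h, the library with high IME1, SWI3 passed from 2 h to 3 h in T99N (0.51, edgeR adjusted p = 0.00474, against 0.39 and an edgeR adjusted p of 0.0660 with all libraries). It also passed without T99N replicate 1 at 3 h (0.49, edgeR adjusted p = 0.0199). SNF11 averaged lowest at 3 h in wild-type UME6, where its libraries had 47.1, 43.1 and 40.2 CPM. The T99N fall of SNF11 was lost without replicate 2 or 3 of either time (edgeR adjusted p up to 0.333), and its wild-type fall without replicate 2 at 2 h or replicate 2 or 3 at 3 h (edgeR adjusted p up to 0.0845).

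Between 0 h and 2 h, before copper, SNF2 and SWI1 were the 2 members that rose, in both strains. With library totals only, the SWI1 rise in T99N still passed, and the others did not (edgeR adjusted p = 0.132 for SNF2 in T99N, and in wild-type UME6 0.0633 for SNF2 and 0.123 for SWI1). SNF2 rose by 0.35 ± 0.14 in T99N (edgeR adjusted p = 0.0459) and by 0.54 ± 0.14 in wild-type UME6 (edgeR adjusted p = 0.00215) on the log2 scale. SWI1 rose by 1.39 ± 0.15 in T99N (edgeR adjusted p = 2.68e-07) and by 0.49 ± 0.15 in wild-type UME6 (edgeR adjusted p = 0.00823). Of all features, 21.8% were higher at 2 h in T99N and 25.1% in wild-type UME6. ARP7, ARP9 and SWP82 fell in both strains, and SNF5 and SNF12 in wild-type UME6 only by these thresholds (20.1% of all features lower in T99N, 25.0% in wild-type UME6), and whether those changes differ between the strains was not tested. ARP9 fell most, by −0.65 ± 0.13 in T99N (edgeR adjusted p = 0.000391) and −0.91 ± 0.13 in wild-type UME6 (edgeR adjusted p = 5.32e-06). Single libraries decided some of these calls. The SNF2 rise in T99N was lost without any 1 library except replicate 2 at 0 h (edgeR adjusted p 0.0754 without replicate 1 at 2 h, and up to 0.153). The SWI1 rise in wild-type UME6 was lost without replicate 1 at 2 h (edgeR adjusted p = 0.0523) or replicate 2 at 0 h (edgeR adjusted p = 0.0554). In T99N, the SNF5 change passed without replicate 1 at 2 h (−0.57, edgeR adjusted p = 0.0167, against −0.40 and an edgeR adjusted p of 0.0652 with all libraries). SWI3 passed in T99N without replicate 2 at 2 h (0.37, edgeR adjusted p = 0.0316). The wild-type SNF5 fall was lost without any 1 library except replicate 2 at 2 h and replicate 1 at 0 h (edgeR adjusted p up to 0.146).

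SNF2 was already higher in T99N at 0 h, by 0.69 ± 0.14 on the log2 scale (edgeR adjusted p = 0.00113), with 189, 228 and 195 CPM in T99N against 132, 112 and 137 CPM in wild-type UME6. SNF11 was the other member called higher at 0 h (0.52 ± 0.19, edgeR adjusted p = 0.0364, lost without replicate 2 or 3 of either strain at up to 0.131), where 18.4% of all features were higher and 18.6% lower. At 3 h, 7 members were lower in T99N (29.4% of all features lower), among them SNF2 (−0.71 ± 0.14, edgeR adjusted p = 0.000136). SWP82 was higher at 3 h (0.30 ± 0.11, edgeR adjusted p = 0.0284, 27.6% of all features higher), a call lost without T99N replicate 3 (edgeR adjusted p = 0.164) or wild-type replicate 2 (0.0934). With library totals only, higher calls made up 81.6% of calls from 2 h to 3 h, 24.3% from 3 h to 4 h and 37.7% from 0 h to 2 h in wild-type UME6, in place of 52.9%, 53.3% and 50.1%. In T99N they made up 39.2% from 2 h to 3 h and 10.7% from 3 h to 4 h in place of 25.8% and 35.1%, and for T99N against wild type at 3 h 27.4% in place of 48.4%.

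**Figure D3:**
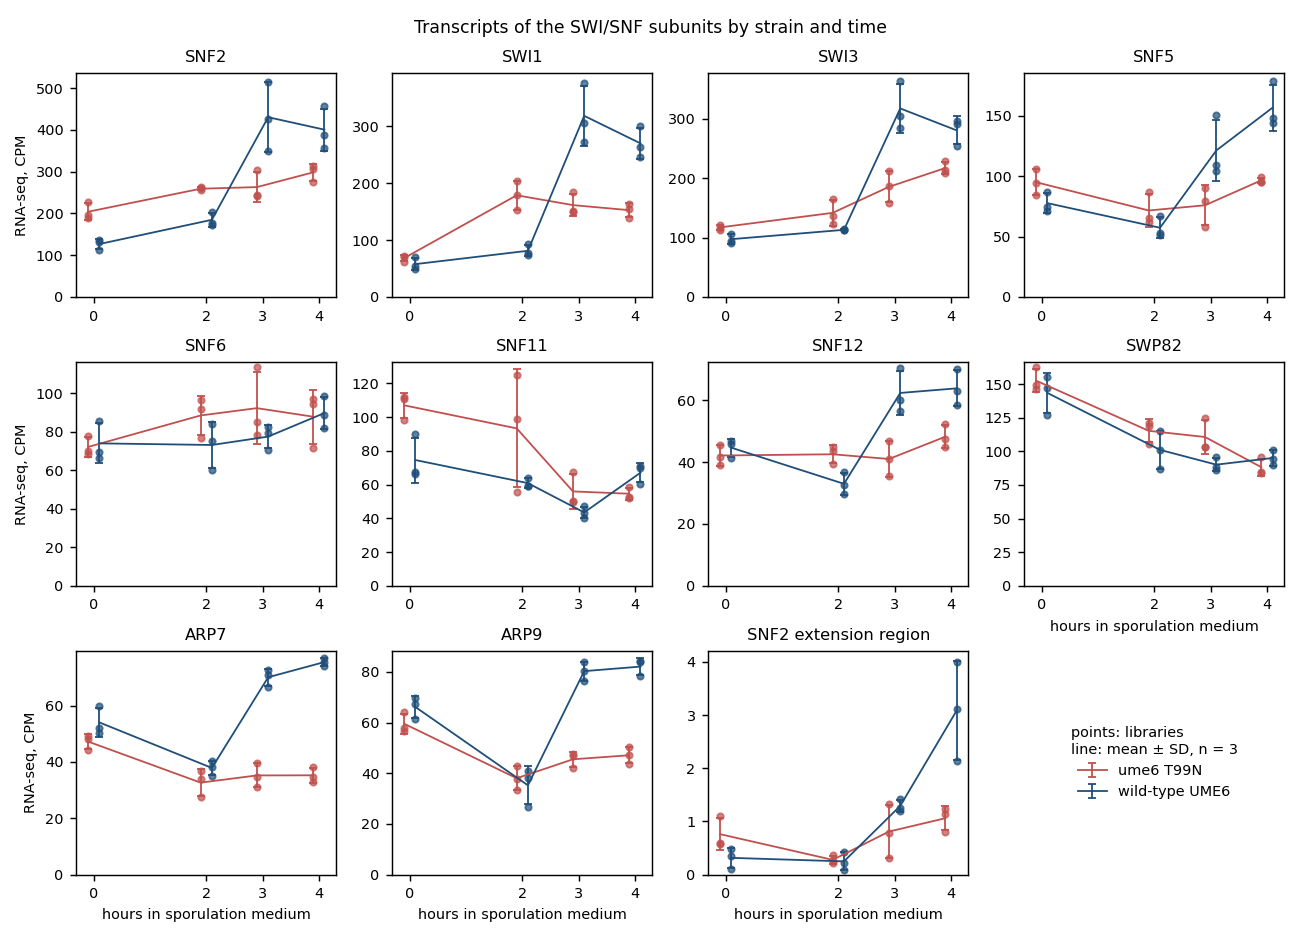
CPM of each member by library at 0, 2, 3 and 4 h in T99N and wild-type UME6, and of the SNF2 extension region, with points for libraries and lines through the group means with bars of 1 SD. SNF2, SWI1 and SWI3 in wild-type UME6 rise between 2 h and 3 h, and SWI1 in T99N reaches 153 to 203 CPM by 2 h.

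Per length of coding sequence, the members were not equally abundant. TPM, which divides reads by feature length, put SNF11 first in T99N at 2 h (214 ± 66.6 TPM, SD, n = 3), followed by SNF6 (61.7 ± 3.99 TPM) and SWP82 (37.2 ± 2.15 TPM). From SWP82 down to ARP7 (14.7 ± 3.91 TPM), each neighbour in the order overlapped the next in its libraries, SNF2 (28.1 ± 3.72 TPM) and SWI1 (25.3 ± 5.32 TPM) included. The most abundant mRNA per length in T99N at 2 h thus belongs to the shortest member, at 474 bp. SNF11 was first at every time in T99N and wild-type UME6. In UB14584, SNF6 exceeded SNF11 in replicate 4 at 4 h (73.8 against 72.9 TPM) and replicate 5 at 2 h (62.3 against 57.4 TPM). SNF11 was above SNF6 in the other library of each time (77.2 against 71.7 TPM at 4 h, 67.3 against 53.6 TPM at 2 h). The ATPase gene, at 5112 bp, ranked 5 of 10 in T99N at 2 h, and in wild-type UME6 it ranked 9 at 0 h, 5 at 2 h and 4 at 3 h and 4 h.

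Across the 24 libraries, SNF2 followed SWI3 (Pearson r = 0.94 on log2 CPM) and SWI1 (0.93) most closely among the members, and SNF12 (0.71) and SNF5 (0.64) less. SNF6 (0.45), ARP9 (0.35) and ARP7 (0.34) followed it weakly, and SNF11 (−0.43) and SWP82 (−0.62) ran the other way. Over 5487 features the most similar profiles were those of ESP1 (0.98), which encodes separase, SPC110 (0.97), a spindle pole body component, and KIP1 (0.97), a kinesin. These are descriptions over libraries that share strain, time and depth.

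The region unique to the SNF2 extension was nearly empty at 2 h and filled at 4 h in wild-type UME6. It had 9, 5 and 12 reads at 4 h against 2, 1 and 3 reads at 2 h in T99N. In wild-type UME6 it had 68, 38 and 42 reads at 4 h against 4, 1 and 2 reads at 2 h. No library of either strain overlapped between the times, but the T99N counts were small throughout. Its change on the log2 scale was 1.90 ± 0.62 in T99N (edgeR adjusted p = 0.0453) and 3.57 ± 0.49 in wild-type UME6 (edgeR adjusted p = 2.51e-05). The T99N call was lost without any 1 of the 6 T99N libraries, with edgeR adjusted p between 0.0695 and 0.137. The interaction was −1.67 ± 0.92 (edgeR adjusted p = 0.176), so the 2 h to 4 h changes were not shown to differ between the strains, while at 4 h the region was lower in T99N by −1.44 ± 0.39 (edgeR adjusted p = 0.00813). That 4 h call was lost when replicate 3 was left out of both strains (edgeR adjusted p = 0.0672). Whether counting used strand is not stated, so antisense reads over this region cannot be told apart.

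Relative to the SNF2 coding sequence, the extension had 10.1%, 6.30% and 9.82% of its TPM at 4 h against at most 3.36% at 2 h in T99N. In wild-type UME6 the shares were 19.6%, 14.5% and 21.4% at 4 h against 5.10%, 1.31% and 3.07% at 2 h. The shares at 3 h in wild-type UME6 were 8.15%, 8.79% and 5.66%, between those of 2 h and 4 h. The coding sequence had its highest mean at 3 h, whereas the extension rose from 2 h to 3 h by 2.37 ± 0.54 (edgeR adjusted p = 0.000605) and again from 3 h to 4 h by 1.22 ± 0.34 on the log2 scale (edgeR adjusted p = 0.00741). The call from 3 h to 4 h was lost when replicate 1, 2 or 3 was left out throughout (edgeR adjusted p = 0.0514, 0.05002 and 0.0705). In T99N the shares had also been 14.2%, 6.43% and 7.21% at 0 h, from 9, 4 and 3 reads, and were 7.95%, 13.2% and 2.56% at 3 h. The T99N shares at 4 h thus lay within the range of its 0 h and 3 h libraries. The features most like the extension over the 24 libraries were OCT1 (r = 0.93), SRO7 (0.92) and GMC1 (0.91).

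TL-seq separates the SNF2 isoforms by their start sites. The distal cluster lay 585 to 560 bp before the start codon (chromosome XV, 831306 to 831331, minus strand, SK1) and the PROX cluster 163 to 114 bp before it (830860 to 830909). Values are reads divided by the authors' size factors, called normalized reads. The distal cluster had 37.4, 33.1 and 28.6 normalized reads at 4 h against 0.842, 0 and 0 at 2 h in replicates 1, 3 and 5. This rise was among the values with which the study picked the locus, so it is a description and was not tested. A second table with replicate 4 gave 15.8 normalized reads at 4 h and 0 at 2 h for the distal cluster.

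The PROX cluster of SNF2 did not pass the test in either direction. It had 90.5, 108 and 135 normalized reads at 4 h against 131, 127 and 107 at 2 h in replicates 1, 3 and 5, and the groups overlapped. Its log2 fold change was −0.14 with a 95% interval of −0.68 to 0.40 (limma adjusted p = 0.676). In the second table the change had the other sign, 0.31 (limma adjusted p = 0.491). There it had 49.4 at 4 h against 40.2 at 2 h in replicate 4, and 63.7 against 50.3 in replicate 5. Distal and PROX reads together averaged 144 ± 17.9 at 4 h and 122 ± 13.4 at 2 h (SD, n = 3 each), a ratio of 1.18 in replicates 1, 3 and 5. RNA-seq of the same strain gave a rise of 1.95-fold over the coding sequence, but in replicates 4 and 5. In replicate 5 the start-site sum was 163 at 4 h and 107 at 2 h, and RNA-seq had 443 and 255 CPM. In replicate 4 of the second table the sum was 65.2 and 40.2, and RNA-seq had 515 and 237 CPM. The distal share of these start-site reads was 29.3% (43 of 147 reads, 95% Wilson interval 22.5 to 37.1), 23.4% (47 of 201, 18.1 to 29.7) and 17.5% (17 of 97, 11.2 to 26.3) at 4 h. At 2 h it was 0.637% (1 of 157, 0.113 to 3.52), 0 of 139 reads, which allows a share of up to 2.16%, and 0 of 90 reads, which allows up to 3.33%. Replicate 4 had 24.2% (16 of 66, 15.5 to 35.8) at 4 h and 0 of 24 reads at 2 h, which allows up to 12.5%. The limits given for 0 reads are 3 divided by the reads of both clusters and are not Wilson bounds. The upper Wilson bounds there were 2.69% (0 of 139), 4.09% (0 of 90) and 13.8% (0 of 24). These limits and intervals cover counting error only, as the reads carry no molecular identifiers.

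**Figure D4:**
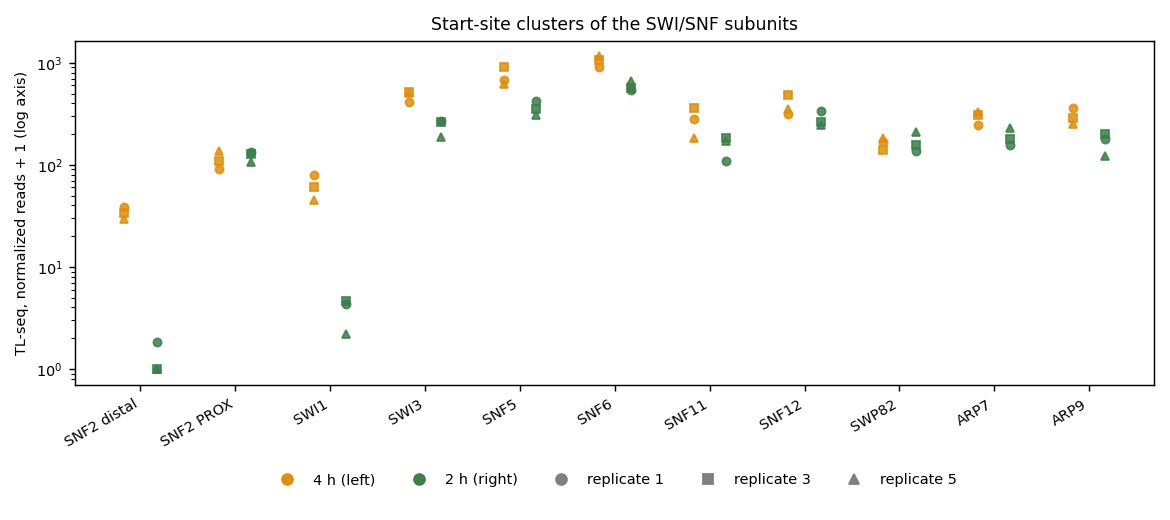
Normalized TL-seq reads of each member's proximal start-site cluster and of the SNF2 distal cluster, by replicate, at 4 h and 2 h on a log axis of the value plus 1. The SNF2 PROX cluster overlaps between the times (90.5 to 135 at 4 h, 107 to 131 at 2 h) and the SNF2 distal cluster lies at 28.6 to 37.4 at 4 h and at most 0.842 at 2 h.

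The start-site clusters of 7 of the 10 members rose, where 24.6% of 5114 clusters were higher and 23.8% lower at 4 h by limma on log2(value + 1) at an adjusted p under 0.1, the threshold the study used. SWI1 rose most. Its cluster, 53 to 26 bp before the start codon, had 78.3, 59.2 and 43.8 normalized reads at 4 h against 3.37, 3.65 and 1.19 at 2 h in replicates 1, 3 and 5. The log2 fold change was 4.08 ± 0.48 (limma adjusted p = 0.000151), on a scale where the added 1 understates changes of low values. The ratio of the SWI1 means was 22.1, against a coding-sequence ratio of 3.94-fold in RNA-seq replicates 4 and 5 of the same strain. The 2 h values rest on few reads, as 1 read in replicate 1 at 2 h equals 0.842 normalized reads. At 2 h the SWI1 cluster averaged 2.73 normalized reads against 122 for the SNF2 PROX cluster. RNA-seq at 2 h averaged 76.3 CPM for SWI1 and 246 CPM for SNF2. Whether the cluster holds all SWI1 start sites was not tested.

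SWI3 averaged 480 ± 55.5 normalized reads at 4 h and 238 ± 45.9 at 2 h (log2 fold change 1.02, limma adjusted p = 0.00664), and SNF5 734 ± 153 and 359 ± 55.6 (1.02, limma adjusted p = 0.00736). SNF6, which had not passed the test in RNA-seq of T99N or wild-type UME6, rose in TL-seq with 1043 ± 120 at 4 h and 589 ± 66.7 at 2 h (0.82, limma adjusted p = 0.0119). SNF11 (0.81, limma adjusted p = 0.0629), ARP7 (0.65, 0.0506) and ARP9 (0.85, 0.0269) also rose. These last calls rested on few libraries: leaving out replicate 1 or replicate 3 ended those of SNF6, SNF11 and ARP7, and leaving out replicate 1 ended that of ARP9 (limma adjusted p 0.184), with limma adjusted p up to 0.395 for SNF11. SNF12 (0.43, 95% interval −0.12 to 0.98, limma adjusted p = 0.190) and SWP82 (−0.02, −0.56 to 0.53, limma adjusted p = 0.964) did not pass. In the second table SWI1, SNF6 and SWP82 were not analysed here, and SWI3, SNF5, SNF11, SNF12 and ARP7 passed among the 7 PROX clusters tested. Of all 4011 clusters tested there, 1692 passed in either direction.

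RNA-seq of UB14584, the strain used for TL-seq, called 8 of the 10 members higher at 4 h and none lower, where 26.6% of 5377 features were higher and 26.8% lower. SNF2 had 515 and 443 CPM at 4 h against 237 and 255 CPM at 2 h (log2 fold change 0.96 ± 0.15, edgeR adjusted p = 0.00288). SWI1 had 333 and 268 CPM at 4 h against 78.4 and 74.3 CPM at 2 h (1.98 ± 0.16, edgeR adjusted p = 0.000289). Both genes were thus close to their changes in wild-type UME6, 1.10 and 1.72, though the difference between strains was not tested here. SWI3 (2.22-fold), SNF5 (1.90-fold), SNF12 (1.93-fold) and ARP9 (2.29-fold) rose at edgeR adjusted p of 0.00487 or less. ARP7 (0.53, edgeR adjusted p = 0.0257) and SNF6 (0.37, edgeR adjusted p = 0.0357) passed with all 4 libraries. The count of higher members was 5 without replicate 4 at 4 h, where SNF6 (edgeR adjusted p = 0.159), SNF12 (0.0531) and ARP7 (0.186) no longer passed, and 6 or 7 without any other library. SNF6 was also lost without replicate 5 at 4 h (edgeR adjusted p = 0.189) or at 2 h (0.0566), and ARP7 without replicate 5 at 4 h (edgeR adjusted p = 0.0699) or replicate 4 at 2 h (0.0523). SNF11 (0.29 ± 0.20, edgeR adjusted p = 0.272) and SWP82 (0.09 ± 0.13, edgeR adjusted p = 0.582) did not pass.

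Nucleosome maps were available as pooled summit signals at each time, without replicate values, so they were described and not tested. At SNF2 the positions 546 and 396 bp before the start codon had 691 and 401 at 4 h against 1265 and 927 at 2 h. Their ratios of 0.546 and 0.433 lay below the range that holds the middle 90% of all 65921 positions (0.645 to 1.63, median 0.960). The fuzziness score, which grows as a nucleosome is less well placed, was 44.1 and 48.7 at 4 h against 31.8 and 35.2 at 2 h. The centres of both positions lie downstream of the distal start-site cluster, and the positions at the PROX start site and in the coding sequence had ratios of 0.861 to 1.01. Fuzziness was higher at 4 h there too, with 43.4 against 35.3 at −101 bp. At 59, 219 and 379 bp into the gene it was 51.4, 56.3 and 50.0 at 4 h against 40.4, 49.8 and 45.7 at 2 h. The median fuzziness difference was 9.56 over the counted SNF2 positions and 1.06 over all positions. Near the Ume6 summit the map had a position of low signal at both times (72.6 at 4 h, 84.7 at 2 h).

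SNF11 changed in the other direction, with 1533 at 4 h against 467 at 2 h at 329 bp before its start codon and 986 against 462 at 24 bp before it. At SNF6 the position 166 bp into the gene had 1365 at 4 h against 864 at 2 h. SWI1 had 159 at 4 h against 256 at 2 h at 512 bp before its start codon, where signal was low. In all, 3 of 52 member positions were at least 1.5-fold lower at 4 h and 3 of 52 were at least 1.5-fold higher (5.77% each), against 6.36% and 8.03% of all positions. The share among members was therefore near the background. SWI3, SNF5, SNF12, SWP82, ARP7 and ARP9 had no position past 1.5-fold in either direction.

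Other remodeler genes give the members a setting. At 4 h against 2 h, TAF14, which encodes a subunit shared with several complexes, rose in wild-type UME6 (0.60 ± 0.18, edgeR adjusted p = 0.0110) and RTT102, shared with RSC, had 0.20 ± 0.14 (edgeR adjusted p = 0.206). In T99N these had 0.37 ± 0.19 (edgeR adjusted p = 0.174) and 0.0036 ± 0.14 (edgeR adjusted p = 0.988). Of 14 genes specific to RSC, 1 was higher and 1 lower in T99N, against 7 higher and 1 lower in wild-type UME6. STH1, the ATPase of RSC, changed by 0.01 ± 0.15 in T99N (edgeR adjusted p = 0.981) and 0.92 ± 0.15 in wild-type UME6 (edgeR adjusted p = 0.000153), with an interaction of −0.91 ± 0.22 (edgeR adjusted p = 0.00568). The ISWI and CHD1 genes had 1 of 9 higher in T99N and 7 of 9 in wild-type UME6, and the SWR1 genes 2 of 10 and 7 of 10. The INO80 genes had none higher and 2 of 13 lower in T99N, against 4 higher and 3 lower in wild-type UME6. Medians in wild-type UME6 were 0.42 for RSC, 0.65 for ISWI and CHD1, 0.56 for SWR1 and −0.0048 for INO80, against 1.04 for the members. Of 6 genes known to depend on SWI/SNF in mitotic cells (SUC2, HO, INO1, PHO5, PHO8 and ADH2), 1 was higher and 2 lower in each strain, where 9.77% of all features were higher and 11.1% lower in T99N and 32.3% and 30.8% in wild-type UME6. They were not the same genes. In T99N PHO8, a phosphatase gene, rose (0.44, edgeR adjusted p = 0.0387) and PHO5 (−0.61, edgeR adjusted p = 0.0431) and SUC2 (−0.79, edgeR adjusted p = 0.0240) fell. In wild-type UME6 INO1, which encodes inositol phosphate synthase, rose (1.29, edgeR adjusted p = 0.000202), and SUC2, the invertase gene (−2.52, edgeR adjusted p = 7.36e-07), and ADH2, an alcohol dehydrogenase gene (−1.99, edgeR adjusted p = 0.000190), fell. The interaction passed for INO1 (−1.75, edgeR adjusted p = 0.000888), SUC2 (1.73, edgeR adjusted p = 0.000947) and ADH2 (2.04, edgeR adjusted p = 0.00471).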

How the data were processed

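RNA-seq reads were quantified by the authors with salmon against SK1 coding regions and the regions of 5′ extensions, and the deposited tables give estimated counts and TPM. The estimated counts were rounded (96.8% were whole within 0.001 in the time course and 98.2% in UB14584) and entered into quasi-likelihood tests in edgeR 4.0.16 under R 4.3.3 (TMM, default filter on low counts, Benjamini-Hochberg over all features, adjusted p under 0.05). The time pairs 2 h and 4 h used 12 libraries and the other comparisons all 24. For TL-seq, the authors aligned reads to the SK1 assembly, clustered start sites and scaled counts by size factors, and the deposited signal is thus a scaled read number without a library total. These were tested with limma 3.58.1 (variance trend) on log2(value + 1). Whole reads could be recovered for 100% of the TL-seq values within 0.001. On these reads edgeR called 2538 clusters, where limma called 2476.

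Same-numbered TL-seq libraries deviated together (correlation 0.17 for replicates 1 and 3, 0.39 for replicate 5). However, replicate 1 at 2 h went more with replicate 3 at 4 h (0.26) than with its own number. Replicate 5 stood apart from replicates 1 and 3 (−0.35 to −0.17). These values set replicate 5 apart but do not show that the numbers pair the libraries. The values given come from the fit without a block. The fit with a replicate block called the same 7 members, ARP7 and SNF11 included. For the Ume6 ChIP, the authors reduced libraries to equal depth and called peaks per replicate over input, and the deposited lists give the fold enrichment as a ratio. For MNase-seq, the authors pooled the libraries of each time, and the deposited table gives a summit signal and a fuzziness score for each nucleosome. The total depth behind the nucleosome signals was not given in the sources used here.

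The complex was picked for description, and the gene lists were chosen, with earlier results of these data known, while its 10 members follow from their identity as subunits. All 10 members and the SNF2 extension are named, with the 3 features most like SNF2 and like its extension, the genes TAF14, RTT102 and STH1, and counts for the other lists. The called genes among those that depend on SWI/SNF were named after their values were seen. Columns of the authors' own fold changes and p-values were not used, nor was a table of histone marks, which holds such fold changes only. A table of 12 per-sample columns of normalized counts of the same libraries was not used. Alternatives were DESeq2 1.42.0, other scalings, no filter, other pseudocounts, a replicate block, and leaving out replicates or, chosen after seeing the data, single libraries. The methods were tested on simulated data. Promoter sequence came from the S288C R64 reference, and no protein sequence was printed.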

Additional observations from a re-analysis of the deposited data

Results flagged for a closer look

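By the interaction term of edgeR, 8 of the 10 members changed unequally in the 2 strains between 2 h and 4 h (T99N minus wild-type UME6, log2 scale, n = 3 libraries per strain and time). The differences were −0.88 for SNF2 (edgeR adjusted p = 0.00156), −1.92 for SWI1 (7.77e-06), −0.66 for SWI3 (0.0097), −0.99 for SNF5 (0.00327), −0.86 for SNF11 (0.0326), −0.73 for SNF12 (0.00642), −0.85 for ARP7 (0.00277) and −0.88 for ARP9 (0.00741). In each case the change was lower in T99N than in wild-type UME6. Of all features, 17.5% had a lower change in T99N by the same test. SNF6 and SWP82 did not pass.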

How the results depend on the processing

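The 7 rises and the SNF2 extension rise at 4 h in wild-type UME6 kept their direction and passed in every alternative run. SNF6 and SNF11, not called at 4 h against 2 h in wild-type UME6, did pass in some alternative run. Their smallest adjusted p over the edgeR and DESeq2 alternatives was 0.00291 for SNF6 and 0.0349 for SNF11. For the interaction of SNF6 it was 0.0467. Whether numbers pair the RNA-seq libraries is not clear. In T99N, same-number correlations of deviations were 0.25, 0.056 and 0.25, and those of unlike numbers ran from −0.24 to 0.14. In wild-type UME6, same-number correlations were −0.10, 0.20 and −0.049, and those of unlike numbers ran from −0.22 to 0.19. With a replicate block, members lower in T99N at 4 h against 2 h numbered 1 in place of 2, those higher in T99N at 2 h numbered 3 in place of 5, T99N had 0 in place of 1 lower from 2 h to 3 h and 1 in place of 0 lower from 3 h to 4 h, and the T99N extension change of 1.92 no longer passed. The block moved no other count of members past 1.5 times.

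DESeq2 and DESeq2 size factors each gave 2 members higher in T99N at 4 h against 2 h, and DESeq2 gave 1 higher in T99N from 2 h to 3 h (by edgeR 0 of 10). With library totals only, the counts were 1 lower in T99N at 4 h against 2 h, 0 higher in wild-type UME6 from 0 h to 2 h, 0 lower from 2 h to 3 h, 0 higher and 2 lower from 3 h to 4 h, and in T99N 1 higher from 0 h to 2 h, 0 lower from 2 h to 3 h and 1 lower from 3 h to 4 h. The count higher in T99N at 3 h was 0. With the same setting SNF11 and SWP82 turned to 0.14 and 0.43 from 2 h to 3 h in wild-type UME6. The T99N extension change was 1.93 with DESeq2 and 1.89 with library totals, and neither passed. The cause was not tested.

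Leaving out replicates or single libraries gave 0 to 2 members higher and 0 to 2 lower at 4 h against 2 h in T99N, a T99N extension change of 1.76 to 2.14, 1 to 3 higher in T99N at 2 h, 4 to 6 lower in T99N at 4 h and 4 to 8 lower in the interaction. It gave 1 to 2 higher and 3 to 5 lower from 0 h to 2 h, 0 to 1 lower from 2 h to 3 h and 0 to 2 higher from 3 h to 4 h in wild-type UME6. In T99N it gave 1 to 2 higher from 0 h to 2 h, and 0 to 1 higher and 0 to 1 lower from 2 h to 3 h. It gave 0 to 2 higher in T99N at 0 h, 0 to 1 higher at 3 h, 5 to 7 higher in UB14584 and 3 to 7 higher in TL-seq. Leaving out a replicate number in UB14584 leaves 1 library a time and no residual spread, so single libraries were left out instead. Counting any Ume6 peak as binding gave 3 members in place of 2. Among values of single features, the alternatives other than leaving out single libraries left 1218 on the same side of the threshold, ended 89 calls and added 16.

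The SNF2 extension had 1 to 12 reads in T99N libraries at 2 h and 4 h, and depth limits its tests. Nucleosome signals had no replicates.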
